A study of Homo sapiens with 24 samples.

Results

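The 47 genes described here carry cells through G2 phase and mitosis, and they were chosen by symbol as mitotic kinases, cyclins and spindle, kinetochore and cytokinesis genes. All 47 were found among the 18632 genes of the expression table, each with 1 value on each of 24 arrays. The arrays measured total RNA from triplicate wells of 2 human thyroid cell lines, the SV40-immortalised normal follicular line Nthy-ori 3-1 and the papillary carcinoma line TPC-1. In each line 20 nM of siRNA was delivered with Lipofectamine RNAiMAX, either siCOPZ1, an esiRNA (a pool of short duplexes) against COPZ1, or siNT, a single non-targeting duplex, and cells were collected after 48 h or 72 h. COPZ1 encodes a coatomer subunit, part of the COPI coat that buds vesicles from the Golgi, and the comparisons ask which genes respond to its depletion. The 8 groups therefore are siNT and siCOPZ1 at 48 h and at 72 h in each line, with 3 wells each. The kind of siRNA reagent changes together with the depletion, and the medium (DMEM for TPC-1, RPMI 1640 for Nthy-ori 3-1) changes together with the line. SV40 large T antigen, carried by SV40-immortalised lines, binds the retinoblastoma proteins and p53, which restrain the cell cycle. The labels name the wells triplicates and do not say that they came from separate cultures, so the p-values measure only the spread between these wells.

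Commitment to mitosis rests on CDK1, a kinase that is active only with a cyclin partner, CCNA2, CCNB1 or CCNB2, and that the phosphatase CDC25C switches on. The spindle checkpoint, with MAD2L1, BUB1B, BUB1 and TTK, holds back the anaphase-promoting complex until every kinetochore is attached, after which CDC20 and the ubiquitin-conjugating enzyme UBE2C let that complex mark cyclin B and securin (PTTG1) for destruction. Transcripts of these genes are low in resting and G1 cells and accumulate in G2, so in a bulk sample their level follows how many cells are cycling, and fewer cells in G2 and mitosis cannot be told apart here from less of each RNA per cell. Their promoters are shut in resting cells by the DREAM complex and opened by B-MYB (MYBL2) and FOXM1, which act through the MuvB core. MuvB binds a short element, the cell cycle genes homology region, near the start of transcription, and the factor NF-Y binds CCAAT boxes upstream of it.

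RefSeq promoters of 300 bases, 250 before to 50 after the gene's start on GRCh38.p14, were held for 39 of the 47 genes, in 46 entries. The letters TTTGAA of the homology region, on either strand, occurred in 32 of these 46 promoters (69.6%) and in 15.2% of all 35116 promoters of that length. CCAAT, on either strand, occurred in 36 of the 46 (78.3%) and in 34.6% of all promoters. A motif match is a description of the letters and not of a bound site. The stretches from 100 bases before to 50 after the start are printed for 7 of the genes that the account names, to show where the motif letters lie in each, with capitals marking TTTGAA or its reverse complement TTCAAA and CCAAT or its reverse complement ATTGG. The marks overlap by 1 base in 1 place, in MKI67. AURKA, BIRC5, UBE2C and FOXM1 are named only.
CDK1, chr10:60778378-60778527, plus strand: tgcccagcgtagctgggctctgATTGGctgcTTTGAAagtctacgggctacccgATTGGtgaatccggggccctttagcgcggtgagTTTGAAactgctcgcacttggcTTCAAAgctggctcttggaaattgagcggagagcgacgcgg
CCNB1, chr5:69167050-69167199, plus strand: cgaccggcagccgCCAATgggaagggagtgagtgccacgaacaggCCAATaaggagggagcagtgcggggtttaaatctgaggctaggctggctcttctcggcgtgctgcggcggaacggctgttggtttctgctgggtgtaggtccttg
CCNA2, chr4:121823834-121823983, minus strand: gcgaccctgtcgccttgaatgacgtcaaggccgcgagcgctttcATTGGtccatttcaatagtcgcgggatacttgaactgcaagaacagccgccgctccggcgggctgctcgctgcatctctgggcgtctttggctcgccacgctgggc
PLK1, chr16:23678789-23678938, plus strand: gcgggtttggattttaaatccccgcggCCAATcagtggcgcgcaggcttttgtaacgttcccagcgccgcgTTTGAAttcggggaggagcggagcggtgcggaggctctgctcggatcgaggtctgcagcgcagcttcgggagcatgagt
TOP2A, chr17:40417847-40417996, minus strand: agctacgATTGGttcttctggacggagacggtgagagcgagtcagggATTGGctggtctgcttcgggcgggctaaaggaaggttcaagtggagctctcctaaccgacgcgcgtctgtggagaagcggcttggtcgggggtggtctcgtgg
MKI67, chr10:128126374-128126523, minus strand: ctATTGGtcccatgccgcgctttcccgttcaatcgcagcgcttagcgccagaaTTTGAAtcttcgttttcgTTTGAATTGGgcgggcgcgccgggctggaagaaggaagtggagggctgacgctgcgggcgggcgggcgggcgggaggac
MAD2L1, chr4:120066799-120066948, minus strand: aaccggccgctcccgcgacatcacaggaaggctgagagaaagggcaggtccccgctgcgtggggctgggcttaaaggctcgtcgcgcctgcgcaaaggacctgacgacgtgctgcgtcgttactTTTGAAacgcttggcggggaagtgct

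In these windows, on either strand, CDK1 holds the letters TTTGAA 3 times and CCAAT 2 times. MKI67 holds 2 of each, PLK1 holds 1 of each, and MAD2L1 holds 1 TTTGAA. CCNB1 holds 2 CCAAT boxes, TOP2A holds 2 and CCNA2 holds 1, each with no TTTGAA in the window. Other spellings of the homology region were not searched, so the element itself may still be present in these 3 windows. The other promoter entry of CDK1 holds neither motif in this window. The S phase genes listed below had TTTGAA in 2 of 48 promoters, CCAAT in 26 of 48 (54.2%) and the E2F element (TTTCGCGC or TTTGGCGC, either strand) in 11 of 48, against 3 of 46 for the G2 and mitosis genes and 1.15% of all promoters. Entries of the same gene can overlap and were counted separately. The E2F element of CDK1 is 1 site that lies in both of its entries.

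Depletion was checked first on COPZ1 itself. Its level in siCOPZ1 wells was 10.5% of that in siNT wells in TPC-1 at 48 h and 22.2% at 72 h, and 25.8% and 33.6% in Nthy-ori 3-1, and all 4 differences passed the test (limma, adjusted p from 1.03e-07 to 0.0178). In Nthy-ori 3-1 the call at 72 h was lost in 7 of 12 alternatives (adjusted p of up to 0.465), with a log2 difference between -1.74 and -1.43, and the call at 48 h in 1, the fit to the compared arrays alone (0.734). Arrays of 1 group correlated at 0.971 to 0.989 across genes. Among thyroid markers, PAX8 had mean log2 levels of 12.28 in TPC-1 and 10.44 in Nthy-ori 3-1, FOXE1 7.81 and 7.60, thyroglobulin (TG) 6.37 and 6.13, TSHR 4.65 and 4.67, the iodide transporter SLC5A5 4.57 and 4.59, and DIO1 3.50 and 3.75, in a table that runs from 1.70 to 14.17. NKX2-1 had 5.84 in TPC-1. Of the leukocyte genes in TPC-1, PTPRC had 3.26, CD3E 3.63, CD14 4.62 and LST1 6.51, so these levels overlap those of the thyroid genes other than PAX8 and FOXE1.

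In the 12 Nthy-ori 3-1 wells the mean log2 level over the 47 genes stayed between 10.11 and 10.44. In TPC-1 siNT wells at 48 h, arrays 1, 2 and 3 gave means of 9.18, 10.10 and 9.82. With siCOPZ1 at 48 h they gave 9.00, 9.77 and 9.64. At 72 h they gave 8.30, 9.28 and 8.55 with siNT and 9.15, 8.97 and 9.02 with siCOPZ1. All 12 TPC-1 wells thus lay below all 12 Nthy-ori 3-1 wells, and the siNT wells at 72 h were the most spread out, with the siCOPZ1 wells of that time close together between their extremes. For 43 of the 47 genes, every TPC-1 group mean was below every Nthy-ori 3-1 group mean, which held for 21.3% of all genes.

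**Figure D1:**
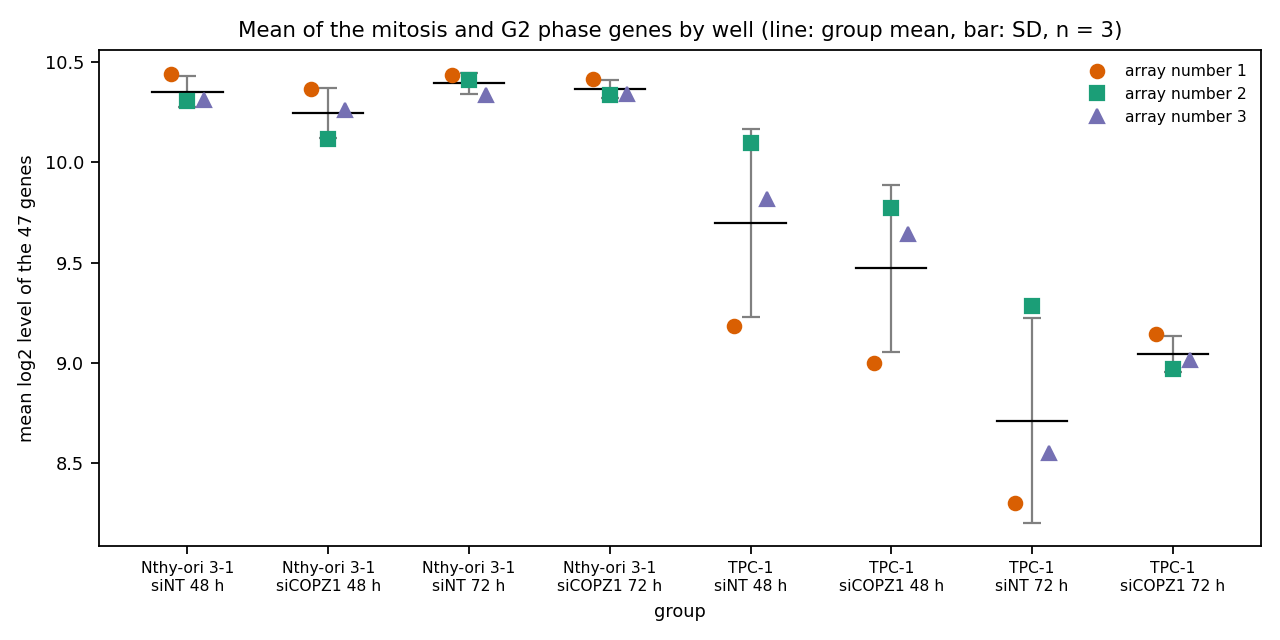
Mean log2 level of the 47 G2 and mitosis genes in each well (vertical axis) by group (horizontal axis); symbols mark the array number, lines the group means and bars the SD of 3 wells. The Nthy-ori 3-1 wells lie between 10.11 and 10.44, while the TPC-1 wells run from 8.30 to 10.10 and are lowest with siNT at 72 h.

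The TPC-1 wells differed among themselves far more than the Nthy-ori 3-1 wells, and did so as a block. The median SD of a G2 or mitosis gene within a group was 0.437 in TPC-1 and 0.153 in Nthy-ori 3-1, against 0.250 and 0.206 over all genes. The SD was larger in TPC-1 for 45 of the 47 genes and for 66.5% of all genes. Array 1 had the lowest value of its group for 45 of the 47 genes with siNT at 48 h, for 44 with siCOPZ1 at 48 h and for 40 with siNT at 72 h, where 33.1%, 36.0% and 35.9% of all genes were lowest on that array. With siCOPZ1 at 72 h array 1 was instead the highest for 30 genes and the lowest for 6. The mean over the 44 S phase genes listed below also differed between TPC-1 wells. On arrays 1, 2 and 3 it was 8.22, 9.40 and 9.16 with siNT at 48 h and 8.32, 9.11 and 9.00 with siCOPZ1. At 72 h it was 7.74, 8.29 and 7.69 with siNT and 8.14, 8.295 and 8.32 with siCOPZ1. The cause of these differences between wells was not tested.

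**Figure D2:**
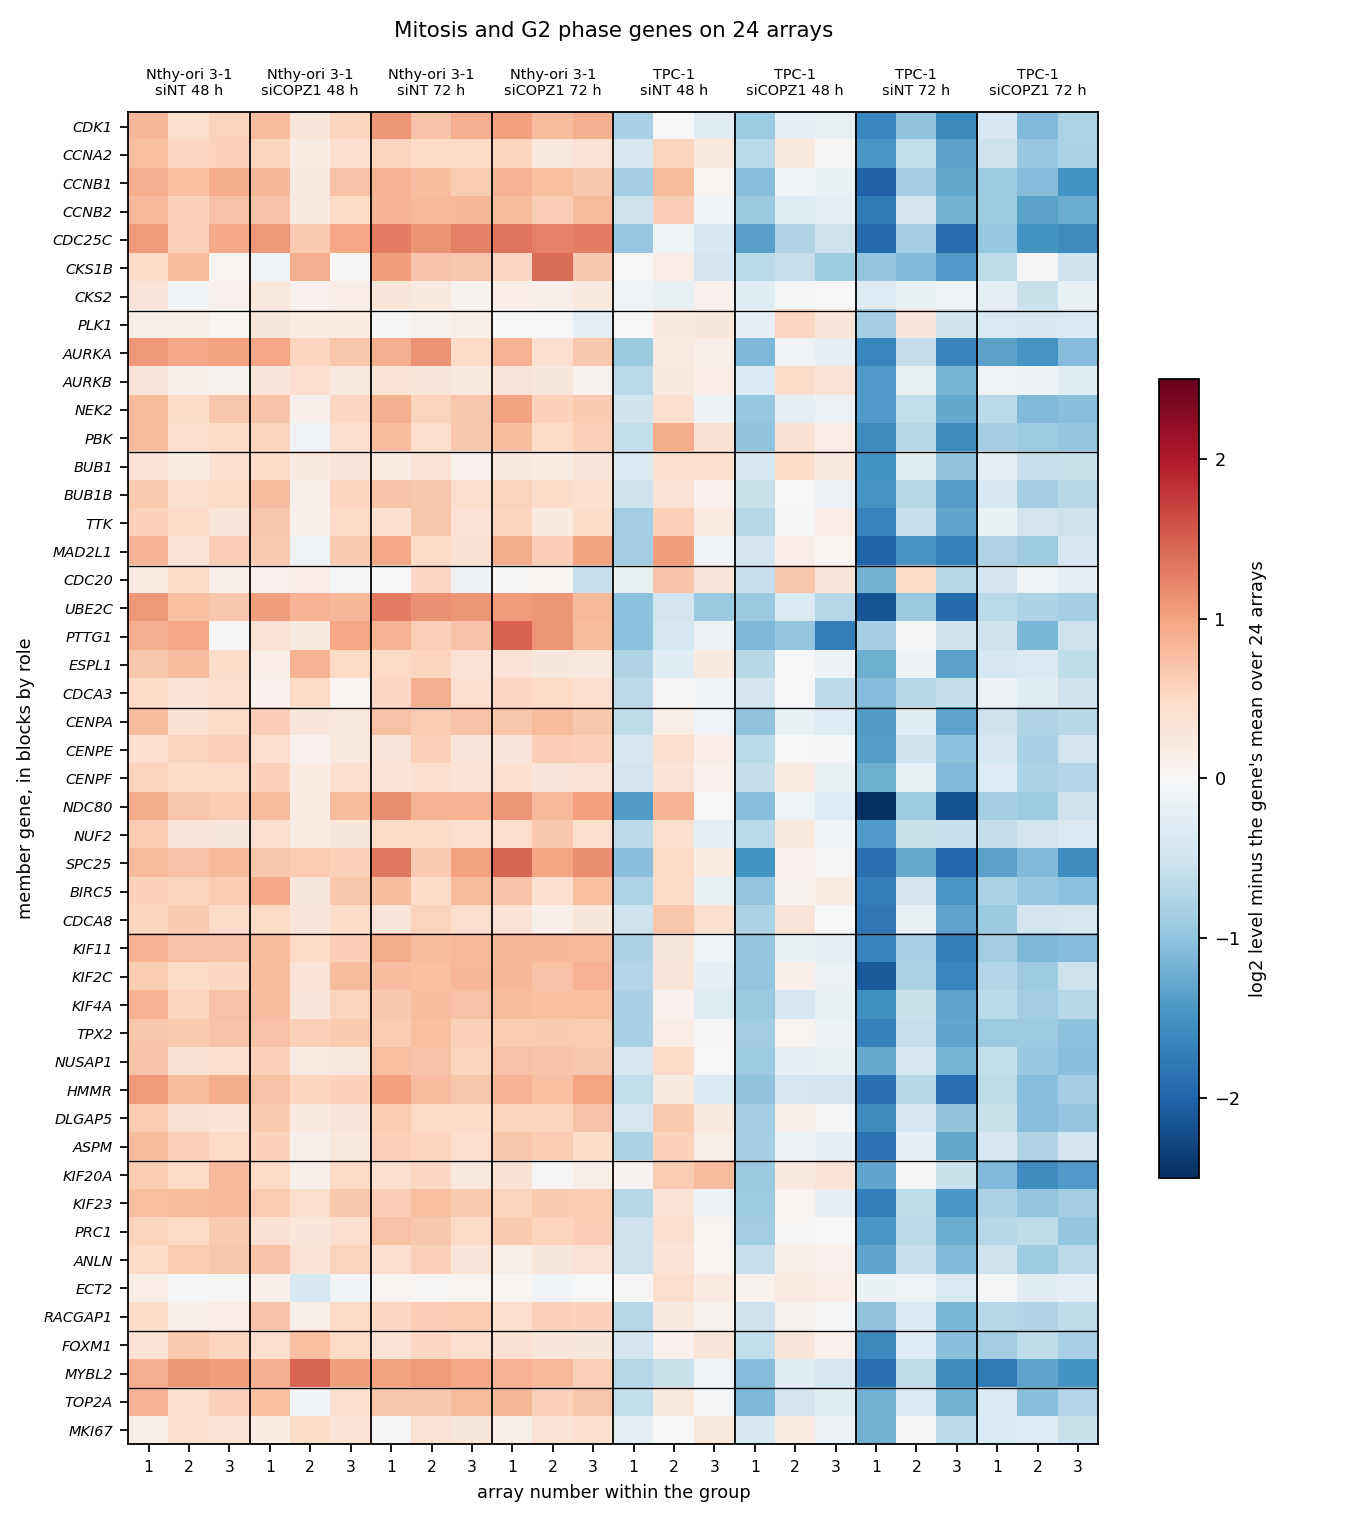
Log2 level of each of the 47 genes minus its mean over the 24 arrays (colour), genes in rows in blocks by role and arrays in columns by group and array number. The columns of array 1 with siNT at 48 h and 72 h and with siCOPZ1 at 48 h are bluer than their neighbours for most genes, and the rows of CKS2, ECT2 and PLK1 are among the palest.

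The first question is how the 2 lines differ with the control siRNA. At 48 h, 17 of the 47 genes were lower in TPC-1 than in Nthy-ori 3-1 and none was higher (limma, called at an adjusted p below 0.05 over all 18632 genes), where 15.0% of all genes were called lower, and the median difference was -0.63 on the log2 scale. At 72 h, 44 were lower, against 20.6% of all genes, with a median of -1.67. The all-gene medians were -0.02 and 0.00. Without array 1 of TPC-1 siNT at 48 h the 48 h count was 9, and without array 2 it was 31, whereas the 72 h count stayed between 42 and 46 whichever well was left out. Without the arrays numbered 1, CDK1, AURKA, CENPA, HMMR, KIF23 and TOP2A lost their 48 h call, while UBE2C, CDC25C and MYBL2 kept theirs in all 12 alternatives.

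Among the cyclins, CDK1 and its regulators, CDK1 in siNT wells at 48 h read 9.43, 10.25 and 9.98 in TPC-1 and 11.06, 10.67 and 10.79 in Nthy-ori 3-1. At 72 h it read 8.61, 9.23 and 8.63 in TPC-1 and 11.33, 10.95 and 11.15 in Nthy-ori 3-1. The lines did not overlap at either time. The difference was -0.95 ± 0.24 (SE) at 48 h (limma, adjusted p = 0.00397) and -2.32 ± 0.24 at 72 h (adjusted p = 1.27e-07). CDC25C, the phosphatase that activates CDK1, had the smallest p of its role at both times, with differences of -1.36 and -2.78. CCNA2 and CCNB1 missed the threshold at 48 h (-0.49 and -0.88) and were lower at 72 h (-1.66 and -2.14).

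Among the kinases, AURKA, which matures the spindle poles, was lower in TPC-1, with differences of -1.22 ± 0.31 at 48 h (limma, adjusted p = 0.00492) and -2.12 ± 0.31 at 72 h. NEK2, a centrosome kinase, had the smallest p of this role at 72 h, with -1.83. PLK1, the kinase that drives centrosome maturation and mitotic entry, behaved otherwise. Its siNT levels at 48 h were 11.60, 11.82 and 11.86 in TPC-1 and 11.73, 11.73 and 11.63 in Nthy-ori 3-1, which overlap, and at 72 h they were 10.72, 11.89 and 11.08 against 11.61, 11.66 and 11.73. The PLK1 difference was 0.06 ± 0.21 at 48 h and -0.44 ± 0.21 at 72 h (limma, adjusted p = 0.88 and 0.103), with a 95% interval at 72 h of -0.87 to -0.01. CDC20 and ECT2, a cytokinesis exchange factor for RhoA, were the other 2 genes not called at 72 h.

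UBE2C, the ubiquitin-conjugating enzyme of the anaphase-promoting complex, had the smallest p of all 47 genes in both line comparisons. Its siNT levels at 72 h were 6.66, 7.90 and 6.90 in TPC-1 and 10.10, 9.97 and 9.93 in Nthy-ori 3-1. The groups were far apart, with a difference of -1.64 ± 0.23 at 48 h (limma, adjusted p = 1.51e-05) and -2.84 ± 0.23 at 72 h (adjusted p = 6.3e-09). In the spindle checkpoint no gene was called at 48 h, and BUB1B led at 72 h with -1.80. At the kinetochore, CENPA, the histone H3 variant of centromeres, was lower at 48 h (-0.73, a call lost in 6 of 12 alternatives, with values from -0.90 to -0.40) and SPC25, of the NDC80 complex, led at 72 h with -2.69. BIRC5 (survivin), of the chromosomal passenger complex, missed the threshold at 48 h (-0.75) and was lower at 72 h (-1.89).

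HMMR, a spindle protein that binds hyaluronan, led the spindle motors and microtubule proteins at both times, with -1.17 and -2.31. In cytokinesis, KIF23, a motor of the central spindle, had the smallest p at 48 h (-0.96), and PRC1, which bundles the microtubules of that spindle, at 72 h (-1.75). The transcription factor MYBL2 was lower at 48 h (-1.48) and at 72 h (-2.37), while FOXM1 missed the threshold at 48 h (-0.54) and was lower at 72 h (-1.42). TOP2A, the topoisomerase that untangles chromosomes, differed by -0.76 and -1.65, both called, but the 48 h call was lost in 8 of 12 alternatives (limma, adjusted p of up to 0.358, values from -0.96 to -0.39). The proliferation antigen MKI67 differed by -0.29 at 48 h, which was not called, and by -0.84 at 72 h, which was.

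**Figure D3:**
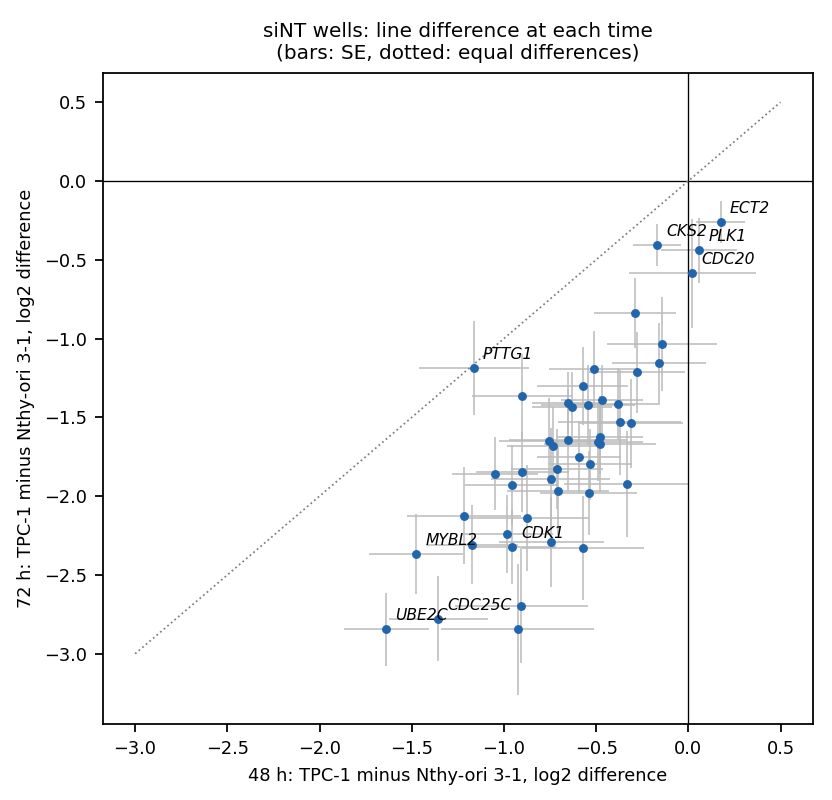
Log2 difference of each of the 47 genes between TPC-1 and Nthy-ori 3-1 siNT wells at 48 h (horizontal axis) and 72 h (vertical axis), with SE bars and a dotted line of equal differences. Nearly all points lie well below the dotted line, and UBE2C is at -1.64 and -2.84. The PLK1, CDC20, CKS2 and ECT2 points are near 0 at 48 h and between -0.585 and -0.262 at 72 h.

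The next comparison is the one from 48 h to 72 h within each siRNA. In TPC-1 siNT wells 24 of the 47 genes fell and none rose (limma), while 1.80% of all genes were called lower. The median difference was -1.05, against 0.00 over all genes, and 46 of the 47 differences were below 0. For 17 genes all 3 wells at 72 h lay below all 3 at 48 h, which held for 8.66% of all genes. Within TPC-1 the group means were lowest in siNT at 72 h for 40 of the 47 genes, against 27.6% of all genes, and highest in siNT at 48 h for 42, against 22.8%.

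This fall rests on a spread that all groups share in the fit. With a spread taken from these 6 arrays alone none of the 47 genes was called. The count was also 0 without array 2 or array 3 of siNT at 48 h and without array 1 or array 3 of siNT at 72 h, and it was 41 without array 1 at 48 h or without array 2 at 72 h. In all of these the 8 members followed by name kept a negative difference.

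MAD2L1, the checkpoint protein that sequesters CDC20, had the largest fall. Its TPC-1 siNT levels were 7.75, 9.66 and 8.56 at 48 h and 6.62, 7.14 and 6.92 at 72 h, so that the times did not overlap. The difference was -1.76 ± 0.33 (SE; limma, adjusted p = 0.0123). Of the checkpoint genes, BUB1 and BUB1B fell too, and TTK missed the threshold.

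Of the 7 cyclins, CDK1 and its regulators, 6 fell, all but CKS2. CCNA2 had the smallest p, at 10.21, 11.19 and 10.89 at 48 h and 9.17, 10.02 and 9.30 at 72 h, a fall of 1.27 ± 0.25 on the log2 scale (limma, adjusted p = 0.0137). CDK1, with the levels given above, fell by 1.06 (adjusted p = 0.0247). CCNB1 read 9.31, 10.98 and 10.25 at 48 h and 8.16, 9.36 and 8.92 at 72 h, and fell by 1.37 ± 0.34 (limma, adjusted p = 0.0392). CDK1 and CCNA2 were lower in every 72 h well than in any 48 h well, but the CCNB1 values of the 2 times overlapped, since array 1 at 48 h lay below array 2 at 72 h.

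Of the 5 kinases 2 fell, NEK2 and PBK, and PBK, a kinase of mitotic cells also called TOPK, led with -1.53 ± 0.34 (limma, adjusted p = 0.0245). AURKA and PLK1 had differences of -1.09 and -0.53 that missed the threshold (adjusted p = 0.0685 and 0.18). None of the 5 genes of anaphase entry fell, with a median of -0.64, UBE2C at -0.86 (limma, adjusted p = 0.0568) and PTTG1 at 0.08, the 1 difference above 0. PTTG1 was at percentile 11.5 of all genes in TPC-1, a low level at which signal over background cannot be judged. At kinetochore and centromere 4 of 8 fell, led by CENPE, a kinesin that aligns chromosomes, with -1.03, while BIRC5 had -1.05 and missed the threshold (adjusted p = 0.0915).

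Of the spindle motors and microtubule proteins 6 of 8 fell, and HMMR led with -1.24. In cytokinesis 3 of 6 fell, and PRC1 led with -1.09. Neither transcription factor was called (FOXM1 -0.97, limma adjusted p = 0.0517), nor were TOP2A (-0.80) and MKI67 (-0.62).

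The same interval in siCOPZ1 wells of TPC-1 gave 2 falls among the 47 genes, where 3.43% of all genes were called lower, and a median of -0.43. KIF20A, a kinesin of the central spindle, read 8.53, 9.68 and 9.81 at 48 h and 8.37, 7.92 and 8.05 at 72 h, and fell by 1.23 ± 0.30 on the log2 scale (limma, adjusted p = 0.0159). MYBL2 read 9.25, 10.06 and 9.93 at 48 h and 8.58, 9.03 and 8.84 at 72 h, and fell by 0.93 ± 0.25 (adjusted p = 0.0319). Neither gene's times overlapped. The count was 0 with the spread of these 6 arrays alone and without array 2 or array 3 at 48 h, 13 without array 1 at 48 h and 1 without any 1 well at 72 h. CDK1 in these wells read 9.34, 10.03 and 10.05 at 48 h and 9.82, 9.14 and 9.46 at 72 h, which overlap.

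In Nthy-ori 3-1 none of the 47 genes was called between 48 h and 72 h, with siNT (median 0.05; 0% of all genes were called) or with siCOPZ1 (median 0.17; 0.182% of all genes). At an unadjusted p below 0.05 there were 0 and 1 of the 47, against 8.31% and 13.8% of all genes. The spread shared with the TPC-1 wells, which was larger for most of these genes, can hide small changes in this line.

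**Figure D4:**
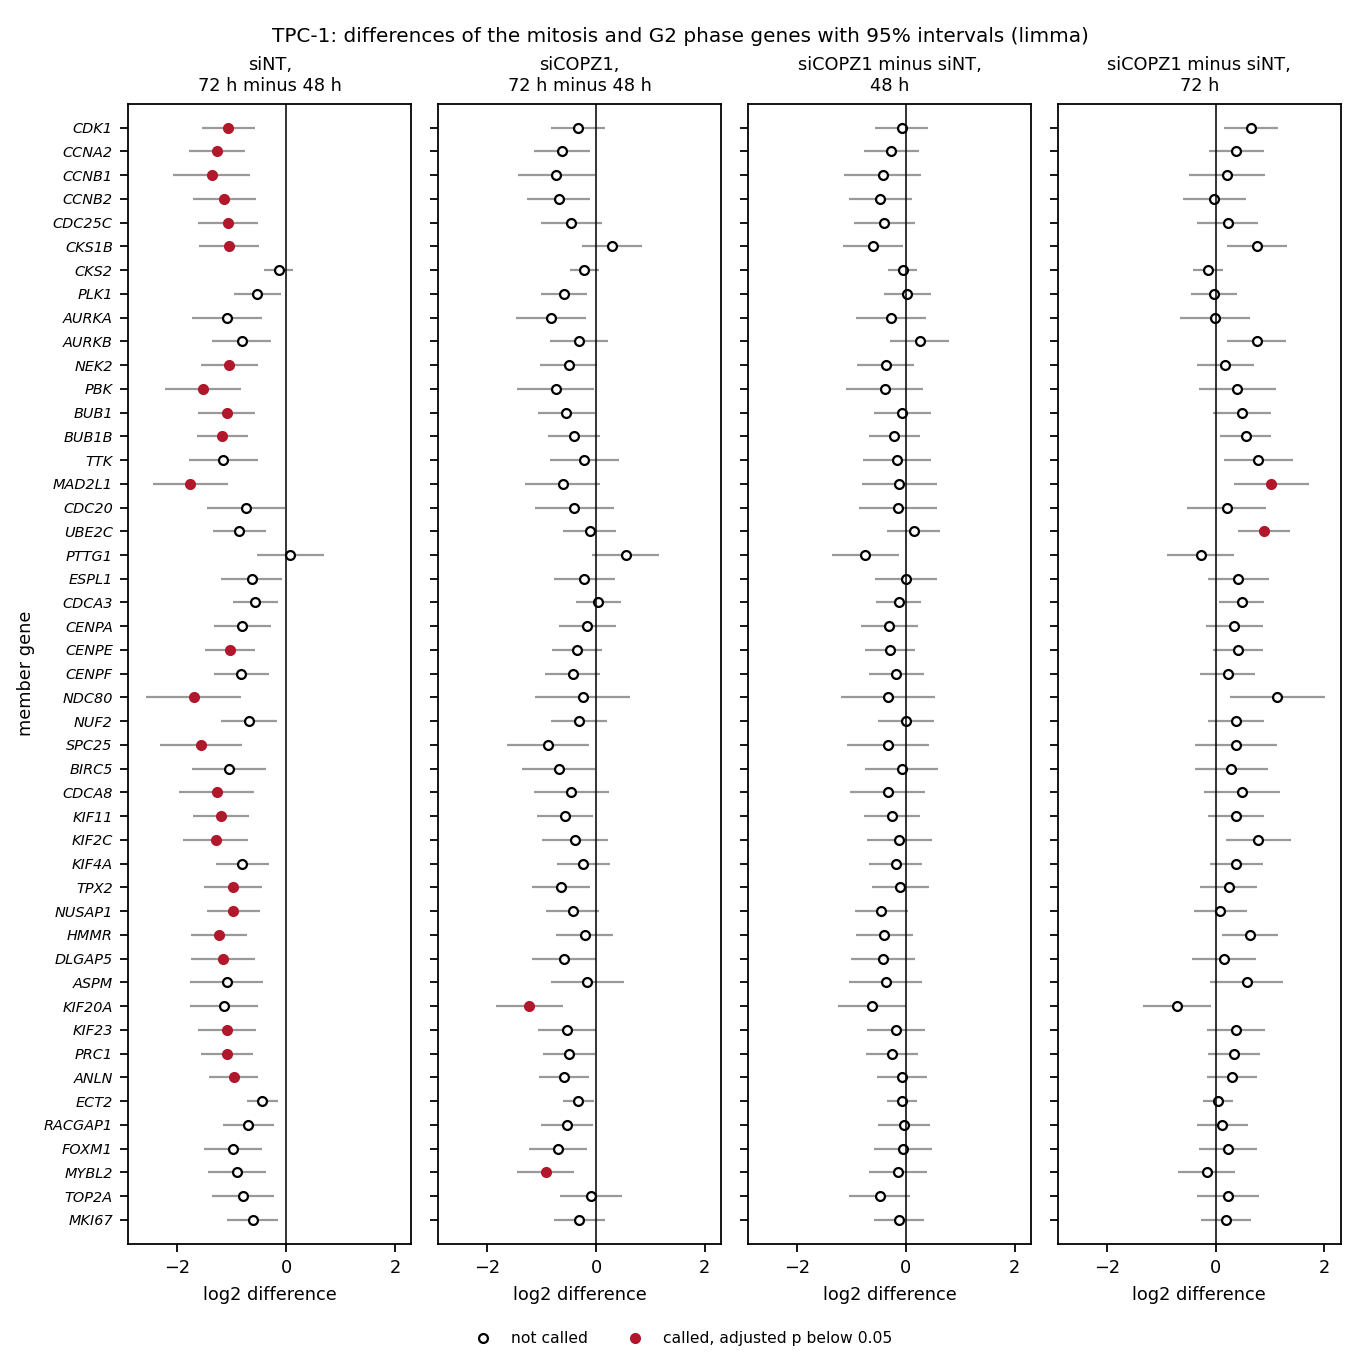
Log2 differences of the 47 genes (rows) in TPC-1 with 95% intervals from limma, for 72 h minus 48 h with siNT and with siCOPZ1 and for siCOPZ1 minus siNT at 48 h and at 72 h; filled points passed an adjusted p of 0.05. The first panel has 24 filled points below 0, the second has 2 below 0, the third has none and the last has 2 above 0. The intervals use the spread that both lines share, which for most genes is smaller than that of the TPC-1 wells.

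The study's own question is the effect of COPZ1 depletion. In TPC-1 at 48 h no gene of the 47 was called (0.166% of all genes were, in either direction, by limma), and at an unadjusted p below 0.05 there were 3, against 9.04% of all genes. The median difference between siCOPZ1 and siNT wells was -0.19, and 43 of the 47 differences were below 0, against 49.3% of all genes. CDK1 differed by -0.08 ± 0.24, CCNB1 by -0.43 ± 0.34 and PLK1 by 0.03 ± 0.21. The median 95% interval of a member was 1.06 wide on the log2 scale. This width rests on the spread that both lines share in the fit. The median SD of a member was 0.437 in TPC-1 and 0.153 in Nthy-ori 3-1. For most members the SEs, intervals and adjusted p-values of TPC-1 comparisons therefore understate the spread between TPC-1 wells.

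In TPC-1 at 72 h, 2 of the 47 genes rose and none fell, while 7.03% of all genes were called higher. The called share of the members, 4.26%, was thus below that of all genes. At an unadjusted p below 0.05 there were 12 of the 47, against 26.2% of all genes. The median difference was 0.34, against -0.01 over all genes, and 40 of the 47 differences were above 0, against 49.4% of all genes. Higher in every siCOPZ1 well than in any siNT well were 6 of the 47 genes, and 14.0% of all genes. These siNT wells are also the later time of the TPC-1 comparison between times, so the 2 comparisons share them.

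UBE2C read 6.66, 7.90 and 6.90 in siNT wells and 8.14, 8.03 and 7.96 in siCOPZ1 wells. All siCOPZ1 wells were above all siNT wells, narrowly so for array 2 of siNT. The difference was 0.89 ± 0.23, a 1.85-fold rise (limma, adjusted p = 0.0123). The call was lost with the spread of these 6 arrays alone (adjusted p = 0.138), without the arrays numbered 1 (0.59, adjusted p = 0.209) and without array 1 or array 3 of siNT (adjusted p = 0.0842 and 0.0677).

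MAD2L1 read 6.62, 7.14 and 6.92 in siNT wells and 7.87, 7.71 and 8.17 in siCOPZ1 wells, again without overlap. The difference was 1.02 ± 0.33, a 2.03-fold rise (limma, adjusted p = 0.0431). It kept its call with the spread of these 6 arrays alone (adjusted p = 0.0231) and lost it when any 1 of the 6 wells was left out, with an adjusted p of up to 0.147.

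CDK1 had levels of 8.61, 9.23 and 8.63 with siNT and 9.82, 9.14 and 9.46 with siCOPZ1, which overlap, and a difference of 0.65 ± 0.24 that missed the threshold (limma, adjusted p = 0.0721). CCNA2 and CCNB1 differed by 0.38 and 0.21, BIRC5 by 0.29, FOXM1 by 0.22, TOP2A by 0.22 and MKI67 by 0.18, none called. AURKA (-0.01 ± 0.31) and PLK1 (-0.03 ± 0.21) had differences near 0. The ends of the range, picked after the values were seen, were NDC80, the kinetochore protein that holds microtubules, at 1.13, and KIF20A at -0.71, neither called. KIF20A read 8.14, 9.44 and 8.90 with siNT and 8.37, 7.92 and 8.05 with siCOPZ1, so the values overlapped.

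**Figure D5:**
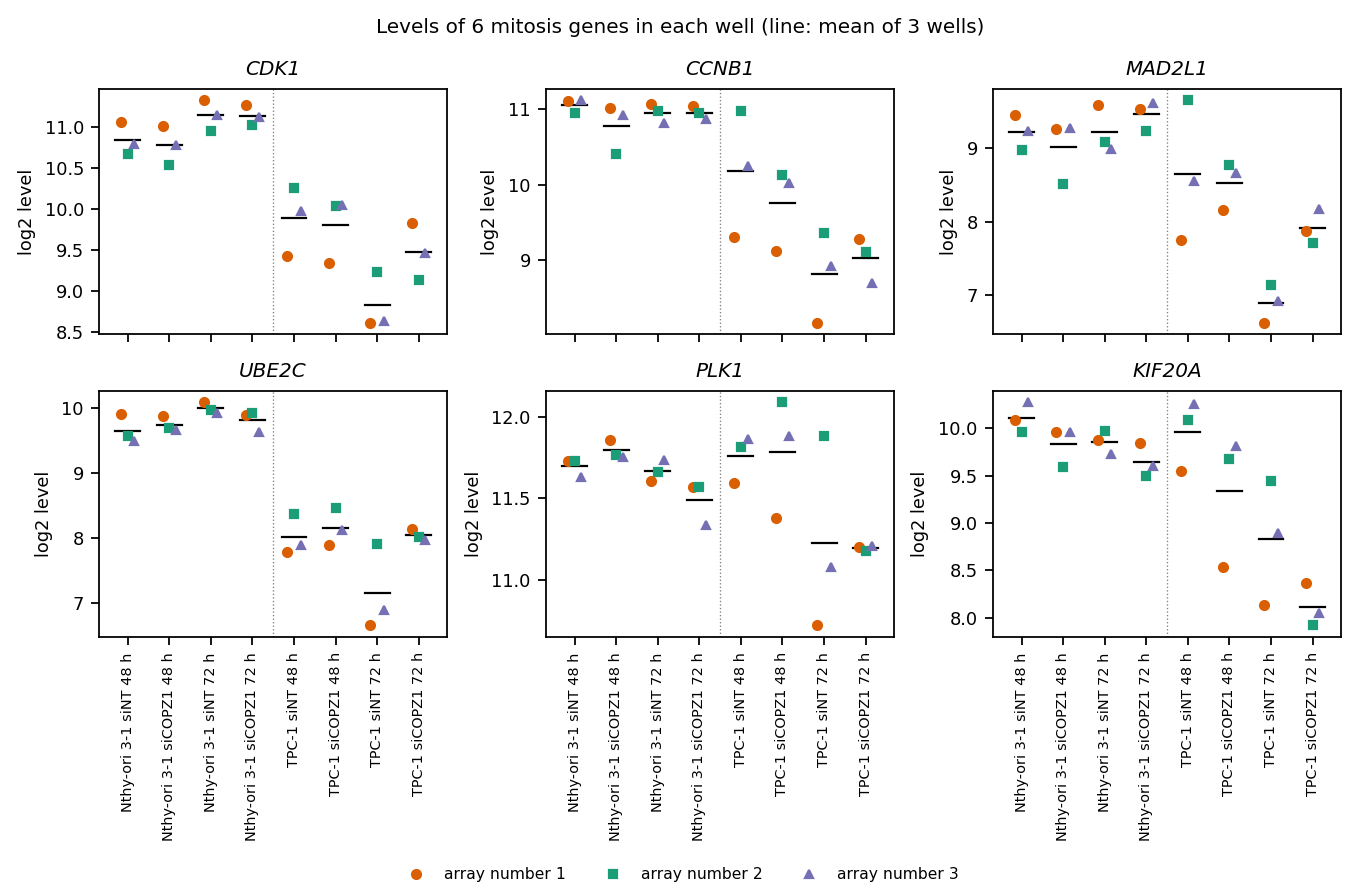
Log2 levels of CDK1, CCNB1, MAD2L1, UBE2C, PLK1 and KIF20A in each of the 24 wells (vertical axes, scaled per gene) by group, with symbols for the array number and lines for the means of 3 wells. UBE2C and MAD2L1 in TPC-1 at 72 h are higher in all siCOPZ1 wells than in all siNT wells, and the CDK1, CCNB1, PLK1 and KIF20A values of these 2 groups overlap.

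Wells with the same array number show how much the sign depends on the siNT well. At 72 h in TPC-1 the numbers did not meet the rule for pairing given below, so matching by number there is only a description. At 72 h in TPC-1, siCOPZ1 minus siNT over the 47 genes averaged 0.85 for the arrays numbered 1, with 47 genes higher, and 0.47 for those numbered 3, with 42 higher. For the arrays numbered 2 it averaged -0.31, with 37 genes lower. At 48 h all 3 averages were below 0, at -0.18, -0.32 and -0.17. Without array 2 of siNT 13 of the 47 genes were called at 72 h in place of 2, without array 3 of siNT the count was 0, and without array 1 of either group or array 3 of siCOPZ1 it was 1.

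The change of the TPC-1 effect between 48 h and 72 h was called for none of the 47 genes (2.04% of all genes were, by limma), with a median of 0.56 and the smallest adjusted p at 0.0665. At an unadjusted p below 0.05 there were 11 of the 47 genes and 15.6% of all genes. Without array 1 of siNT at 48 h the count was 3, without array 2 of siNT at 72 h it was 2 and without array 3 of siNT at 48 h it was 1. So the falls seen with siNT and the fewer falls seen with siCOPZ1 were not shown to differ for any single gene.

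In Nthy-ori 3-1 depletion gave no call among the 47 genes at 48 h (median -0.14; 0.00537% of all genes were called, by limma) or at 72 h (median -0.02; 0.00537%). At an unadjusted p below 0.05 there were none at either time, against 4.86% and 3.08% of all genes. The fit shares 1 spread per gene over both lines. The median SD of these genes was 0.437 in TPC-1 and 0.153 in Nthy-ori 3-1, so low counts here do not exclude small effects. At 48 h and 72 h, 35 and 29 of the 47 differences were below 0, against 49.8% and 50.3% of all genes. UBE2C read 10.10, 9.97 and 9.93 with siNT and 9.90, 9.92 and 9.64 with siCOPZ1 at 72 h, a difference of -0.18 ± 0.23, and CDK1 differed by -0.01 ± 0.24. The range over the 47 genes at 72 h was -0.29 to 0.40. The change of the effect from 48 h to 72 h in this line was called for none of the 47 (0% of all genes), and at an unadjusted p below 0.05 there were none either, against 2.60% of all genes.

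The difference of the effect between the lines was called for none of the 47 genes at 48 h (0% of all genes) or at 72 h (4.02% of all genes were called, by limma), with 0 and 4 genes at an unadjusted p below 0.05, against 3.30% and 16.6% of all genes. At 72 h the median was 0.34, and UBE2C had the smallest adjusted p, at 0.0746 for a difference of 1.07 ± 0.33. Without array 2 of TPC-1 siNT at 72 h, 2 genes were called.

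Neighbouring parts of the cell cycle were set beside the 47 genes in the same comparisons. With siNT, 15.0% of all genes were called lower in TPC-1 than in Nthy-ori 3-1 at 48 h and 20.6% at 72 h. Of 72 other mitosis genes 33 and 67 were lower at these times, with medians of -0.66 and -1.66. Of 44 S phase genes 21 and 42 were lower, with medians of -0.69 and -1.905. No gene of either list was called higher between the lines. In TPC-1 siNT wells from 48 h to 72 h, where 1.80% of all genes were called lower, 40 of 72 other mitosis genes fell (median -1.0), led by DEPDC1 at -1.27 ± 0.15 (limma, adjusted p = 0.00135) and CENPK at -1.64. Of 44 S phase genes 26 fell (median -1.05), led by POLE2, a subunit of DNA polymerase epsilon, at -1.79, and by CHAF1A, of the chromatin assembly factor, at -1.29. Of 21 regulators of these genes (MuvB, E2F and NF-Y) 4 fell, led by the repressor E2F8 at -1.41 and the MuvB subunit LIN9 at -0.81, and of 15 subunits of the anaphase-promoting complex 1 fell, ANAPC1 at -0.71. Of 14 G1 cyclins, kinases and CDK inhibitors 1 fell, CDK2 at -0.91, and CDKN1A (p21), an inhibitor of cyclin-dependent kinases, differed by 0.16 and was not called. None of the genes in these lists rose. DEPDC1 lost its call only with the spread of these 6 arrays alone, POLE2 and CHAF1A lost it in 4 of 12 alternatives and E2F8 and CDK2 in 5.

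With siCOPZ1 over the same interval in TPC-1, where 3.43% of all genes were called lower, 2 of the 72 other mitosis genes fell, SKA2 at -0.63 and LMNB1 at -0.92, and 4 of the 44 S phase genes fell, led by MCM3, of the replicative helicase, at -0.93 and thymidine kinase TK1 at -1.04. MYBL1, a relative of MYBL2, fell by 1.23 on the log2 scale. CDKN1A rose by 1.15 ± 0.28 (limma, adjusted p = 0.0158), and the CDK4 and CDK6 inhibitor CDKN2C fell by 1.20. The share of the other mitosis genes called lower was thus no higher than that of all genes. Over all genes, 592 of 18632 were called higher. MCM3 and CDKN2C lost their call only in the fit to these 6 arrays alone, CDKN1A (values from 0.94 to 1.62), SKA2 and MYBL1 in 4 of 12 alternatives and LMNB1 and TK1 in 6.

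For siCOPZ1 against siNT in TPC-1 at 72 h, where 7.03% of all genes were called higher, 14 of the 72 other mitosis genes rose (median 0.46), led by TRIP13, an ATPase that resets the checkpoint by acting on MAD2L1, at 1.38 ± 0.33 (limma, adjusted p = 0.00723), and by the kinetochore gene MIS12. Of the 44 S phase genes 5 rose, a share not far from that of all genes, led by POLE2 and the replication licensing factor CDC6. E2F7, a repressor of E2F targets, led the 21 regulators with a rise of 1.79, where 3 rose and 1, the E2F partner TFDP2, fell by 0.88 on the log2 scale. Over all genes, 1382 of 18632 were called lower. No subunit of the anaphase-promoting complex was called. CDKN1A read 7.03, 6.58 and 6.49 in siNT wells and 7.37, 7.76 and 7.65 in siCOPZ1 wells, and rose by 0.89 ± 0.28 (adjusted p = 0.0362), while CDKN2C fell by 1.57 and CDKN2A by 0.56. These were the only calls among the 14 G1 cyclins, kinases and CDK inhibitors. E2F7, TFDP2, CDKN2C and MIS12 kept these calls in all 12 alternatives, TRIP13 lost its call in 1, POLE2 and CDKN2A in 3, and CDC6 and CDKN1A in 4. At 48 h in TPC-1 no gene of these 5 lists was called by limma.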

How the data were processed

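Total RNA was labelled for Affymetrix whole-transcript arrays, and the authors deposited log2 values, 1 for every gene on an array. The submitters' processing notes name RMA, which corrects background, normalises quantiles between arrays and summarises probes, and per the labels' protocols RNA was extracted with a column kit. No chip, software version or build is given in the sources used here. Quantile normalisation would remove a change shared by most genes.

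Of 18637 table rows, 28 had symbols turned into dates by spreadsheet software and were kept by Ensembl identifier. For 5 repeated symbols the row with the higher mean was kept. This left 18632 genes. limma 3.58.1 in R 4.3.3 (lmFit, eBayes) fitted 8 group means to 24 arrays, two-sided, with Benjamini-Hochberg adjustment over all genes and calls at an adjusted p below 0.05. The fit shares 1 spread per gene over both lines. The number of arrays limits the precision. The procedure was tested on simulated data with independent noise and 1 spread per gene. These lack the larger TPC-1 spread and the shifts that genes share within a well, so the test does not cover them. Promoters and motifs were read, and figures drawn, in Python 3.11.15 with matplotlib 3.10.9.

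The members and lists were chosen with earlier results of these data known, and no list was tested as a set. Chosen beforehand to be followed by name were CDK1, CCNB1, CCNA2, PLK1, AURKA, BIRC5, UBE2C, TOP2A, MKI67, FOXM1, COPZ1 and CDKN1A. Not all of them are printed in every comparison. In each comparison the called member with the smallest p of each of 9 roles was added, every called member where at most 5 were called, and the 2 called genes with the smallest p from each other list. Members named beside these were chosen after their values were seen.

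Array numbers were taken to pair 2 groups where deviations from the group means correlated above 0.1 for all 3 numbers. This held for siCOPZ1 and siNT in TPC-1 at 48 h (0.404, 0.292 and 0.145) and for the times with siCOPZ1 in Nthy-ori 3-1 (0.104, 0.170 and 0.120). With the number as a block no member was called in either, as without it. Other pairs of groups missed the rule, such as siCOPZ1 and siNT in TPC-1 at 72 h (0.163, 0.160 and 0.041). In these, each array still correlated best with the array of its own number, except for the times with siNT in TPC-1.

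Alternatives were the block, a fit to the compared arrays alone, median centring, leaving out the dimmest 1/3 of genes, a trended robust prior, leaving out the arrays numbered 1 and leaving out each well.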

Additional observations from a re-analysis of the deposited data

Results flagged for a closer look

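None of the 47 G2 and mitosis genes had a called difference of the depletion effect between the lines at 72 h, where 4.02% of all genes were called. In the neighbouring lists 4 genes were called, each by a test of that difference in limma. They were 1 of 72 other mitosis genes, 1 higher and 1 lower of 21 regulators, and 1 of 14 G1 genes. None of the 44 S phase genes or the 15 subunits of the anaphase-promoting complex was called. DEPDC1, a mitosis gene, had an effect 0.83 ± 0.22 (SE) higher on the log2 scale in TPC-1 than in Nthy-ori 3-1 (adjusted p = 0.035). The difference for E2F7, a repressor of E2F targets, was 1.90 ± 0.33 (adjusted p = 0.00185). That for TFDP2, a partner of E2F factors, was -1.0 ± 0.22 (adjusted p = 0.0092), and that for the CDK4 and CDK6 inhibitor CDKN2C was -1.56 ± 0.26 (adjusted p = 0.00134). E2F7, TFDP2 and CDKN2C kept this call in all 18 alternatives run, whereas DEPDC1 lost it in 10, with an adjusted p of up to 0.126. Medium changes with the line, and the 2 cannot be told apart. Groups of 3 wells were not searched for outlying wells.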

How the results depend on the processing

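For single genes, 3120 alternative values were computed. Of these, 2759 kept their direction and their side of the threshold, 175 lost a call, 48 gained one, 138 changed sign with no call in either setting, and 0 reversed a call. Counts of called members changed as follows, and the cause was not tested. For siCOPZ1 against siNT in TPC-1 at 72 h (2 called) the count was 9 with the array number as a block, 1 with the compared arrays alone, 4 with median centring, 4 without the dimmest genes, 1 without the arrays numbered 1, and 0 to 13 when 1 well was left out. For 72 h against 48 h in TPC-1 siNT (24 called) it was 37 with the block, 0 with the compared arrays alone and 0 to 41 without 1 well. For the same times with siCOPZ1 (2 called) it was 5 with the block, 0 with the compared arrays alone, 15 without the arrays numbered 1 and 0 to 13 without 1 well. For the change of the TPC-1 effect between times (0 called) it was 1 with the block, 1 without the dimmest genes and 0 to 3 without 1 well. For the difference of the effect between lines at 72 h (0 called) it was 1 with the block and 0 to 2 without 1 well. For TPC-1 against Nthy-ori 3-1 siNT at 48 h (17 called) it was 18 with the block, where TOP2A and NEK2 lost their call and CKS1B, PRC1 and FOXM1 gained one, 4 without the arrays numbered 1 and 9 to 31 without 1 well. Outside the 2 comparisons that meet the pairing rule, the labels do not say what links arrays of the same number. Most of these arrays still correlated best with the array of their own number, as given above. Over all genes, the block moved the count for the times with siNT in TPC-1 from 391 to 753, with siCOPZ1 in Nthy-ori 3-1 from 34 to 225, and for the change of the TPC-1 effect from 381 to 811, and it changed no member call outside the comparisons named here. Signal over background cannot be judged from the deposited values.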
